A study of Mus musculus with 28 samples.

Results

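The genes described are 7 major urinary protein genes of the mouse, Mup1, Mup3, Mup7, Mup12, Mup16, Mup20, and Mup21, in liver RNA. They were taken as the features of the count table whose Ensembl identifiers map to these symbols, which gave 7 of 49585 features, and the table holds 42 further Mup features. The study asked which hepatic genes respond to overexpression of SIRT6, a chromatin deacylase, and compared WT with transgenic (SIRT6-tg) littermates of each sex. Bulk liver RNA was sequenced from 28 mice, 7 WT and 7 SIRT6-tg of each sex. All 4 groups were C57BL/6JOlaHsd mice aged 5 to 7 months, kept on standard chow and fasted before the livers were collected, and the SIRT6-tg mice came from 1 transgenic line whose promoter is not given in the sources used here. Sirt6 reads, from the endogenous gene and the transgene together, reached 1.69 to 3.24 CPM (read counts relative to the library total after TMM scaling) in male WT and 198 to 358 CPM in male SIRT6-tg libraries. In females they reached 1.80 to 6.22 CPM in WT and 16.4 to 50.2 CPM in SIRT6-tg livers, so the transgenic males carried far more Sirt6 RNA than the transgenic females.

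Major urinary proteins are small lipocalins that hepatocytes secrete into the blood and the kidney passes into the urine, where they carry volatile pheromones and act as signals themselves. Their genes arose by repeated duplication and form a single cluster of near-identical genes and pseudogenes. In mouse liver they are a classical readout of sex, because transcription depends on the pulsatile growth hormone of males acting through STAT5b, and also on androgens, glucocorticoids, and thyroid hormone. MUP20, known as darcin, is the male pheromone that attracts females, while MUP3 is one of the major hepatic forms.

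All 7 members lie on the minus strand of chromosome 4 (GRCm38), inside a cluster that runs from 59956804 to 62150863 and holds 48 of the 49 Mup features, 22 of the 49 being protein-coding and 27 pseudogenes. From the first base of the cluster onwards, Mup7 (ENSMUSG00000073842.10) spans chr4:60066469-60070475. Mup1 (ENSMUSG00000078683.9) spans chr4:60498012-60501960 and Mup12 (ENSMUSG00000094793.1) chr4:60737383-60741326. Mup16 (ENSMUSG00000078675.9) follows at chr4:61515592-61519531. At the far end lie Mup20 (ENSMUSG00000078672.2, chr4:62050234-62054158), Mup3 (ENSMUSG00000066154.11, chr4:62083476-62087342), and Mup21 (ENSMUSG00000066153.2, chr4:62147932-62150863).

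How much the members resemble each other decides which of them a short read can tell apart, so the same stretch of coding sequence is printed for all of them. Each line holds the bases aligned to coding bases 61 to 150 of Mup7, and capitals mark bases that differ from Mup7.
Mup7: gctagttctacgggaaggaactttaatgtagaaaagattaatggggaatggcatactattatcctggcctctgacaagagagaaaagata
Mup1: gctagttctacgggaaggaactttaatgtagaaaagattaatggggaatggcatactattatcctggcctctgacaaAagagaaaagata
Mup12: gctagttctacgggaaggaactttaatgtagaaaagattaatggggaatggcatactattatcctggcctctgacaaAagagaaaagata
Mup16: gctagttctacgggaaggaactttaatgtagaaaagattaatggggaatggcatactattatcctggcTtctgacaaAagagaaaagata
Mup20: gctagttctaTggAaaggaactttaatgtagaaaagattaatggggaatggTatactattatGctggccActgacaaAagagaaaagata
Mup3: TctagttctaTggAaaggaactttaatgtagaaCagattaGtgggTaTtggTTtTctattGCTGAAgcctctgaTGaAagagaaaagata
Mup21: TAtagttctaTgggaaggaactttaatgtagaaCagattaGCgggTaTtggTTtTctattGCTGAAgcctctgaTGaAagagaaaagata
In these 90 bases Mup1 and Mup12 were identical to each other and differed from Mup7 at 1 base, and Mup16 differed at 2. Mup20 differed at 6, Mup3 at 19, and Mup21 at 20. Over the whole coding sequence (540 to 552 bases), Mup1, Mup7, Mup12, and Mup16 were 98.7% to 99.6% identical to each other. Mup20 was 91.1% identical to Mup1, Mup3 was 83.5% identical to Mup1, and Mup3 and Mup21 were 95.4% identical to each other.

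This similarity sets what the counts can measure, since the authors kept only reads that map to a single place. Of all 50-base words in the Mup7 transcript, 3.64% occurred in no other annotated gene, compared to 5.24% for Mup1, 9.34% for Mup16, and 14.6% for Mup12. The median word of these 4 transcripts was shared by 12 or 13 genes. In contrast, 49.5% of the words were unique in Mup20, 80.7% in Mup21, and 84.4% in Mup3. With 100-base words the shares were 12.8% for Mup1, 12.9% for Mup7, 61.2% for Mup20, and 97.1% for Mup3. The read length is not given in the sources used here. Counts of Mup1, Mup7, Mup12, and Mup16 therefore rest on a small part of each transcript and are uncertain as to which copy was the source.

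**Figure D1:**
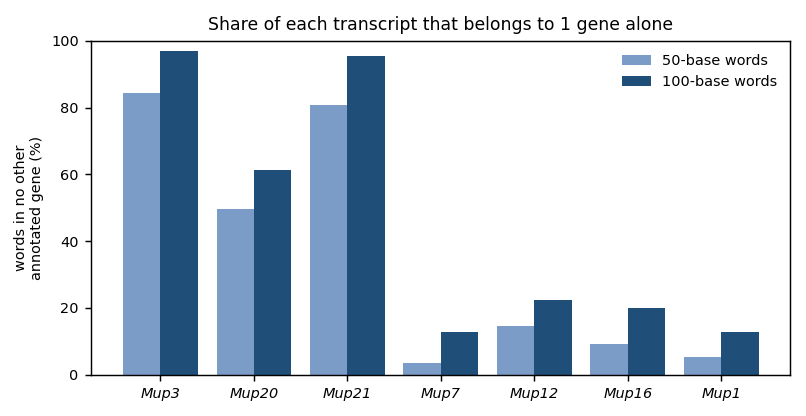
Share of the words of 50 and 100 bases of each member transcript that occur in no other annotated gene, in percent. Mup3 and Mup21 are above 80% at both lengths, Mup20 lies at 49.5% and 61.2%, and the 4 near-identical members are at 22.5% or below.

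RefSeq promoter windows (GRCm38.p6, minus strand) were matched for 3 of the 7 members, and they are printed because these 3 genes had different profiles in males. The bases upstream of both annotated starts are given, which is chr4:60070476-60070725 for Mup7, chr4:62087343-62087567 for Mup3, and chr4:62150864-62151091 for Mup21. Capitals mark ATCAAT, the reverse strand of the HNF6 core ATTGAT, and TGTTCT, the core of steroid receptor elements.
Mup7: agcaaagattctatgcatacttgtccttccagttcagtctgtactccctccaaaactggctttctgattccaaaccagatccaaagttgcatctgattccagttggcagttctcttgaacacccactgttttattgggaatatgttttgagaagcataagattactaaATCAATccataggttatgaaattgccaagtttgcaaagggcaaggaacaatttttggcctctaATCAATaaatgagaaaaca
Mup3: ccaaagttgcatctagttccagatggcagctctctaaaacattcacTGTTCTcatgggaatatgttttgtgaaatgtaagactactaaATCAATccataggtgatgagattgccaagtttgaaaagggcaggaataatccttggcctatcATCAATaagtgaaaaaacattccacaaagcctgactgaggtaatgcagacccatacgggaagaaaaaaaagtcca
Mup21: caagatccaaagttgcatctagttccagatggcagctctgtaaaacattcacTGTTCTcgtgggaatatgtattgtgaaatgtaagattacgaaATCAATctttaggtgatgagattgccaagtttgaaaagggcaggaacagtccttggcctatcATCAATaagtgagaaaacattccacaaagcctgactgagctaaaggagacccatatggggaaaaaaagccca
The letters ATTGAT, searched on both strands in windows from 250 bases before to 50 bases after the start, occurred in all 14 Mup windows of the table, on the strand opposite to the gene and in 2 copies each, compared to 7.54% of all 32851 promoters. TGTTCT was found in 2 of the 14, Mup3 and Mup21, compared to 19% of all promoters, and TATAAA in 2 of 14, compared to 13.6%. Neither TTCNNNGAA, a STAT motif (8.30% of all promoters), nor GTTAAT, an HNF1 motif (7.10%), was present in any of the 14 windows. None of these motifs overlap each other in the printed windows. The Mup3 and Mup21 windows were 93.9% identical over 294 aligned bases, and those of Mup7 and Mup3 85.4% over 213. Only exact letters were counted, so a near match to TATAAA, such as TATAAG in the Mup2 window, was left out. A match describes letters and is not evidence of binding.

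Depth was similar across the groups, with 18758863 to 35393069 counts per library (median 26012203), and no library pair looked like a repeat of 1 library. All Mup features together took 0.879 ± 0.141% (SD, n = 7) of the counts in male WT, 1.21 ± 0.265% in male SIRT6-tg, 0.219 ± 0.0671% in female WT, and 0.231 ± 0.0680% in female SIRT6-tg livers. Differences were assessed by edgeR's quasi-likelihood F-test across the 21583 genes whose mean normalized count was 0.5 or more, and a gene was called different at a Benjamini-Hochberg adjusted p-value under 0.05. All 7 members passed this filter, and all 7 had a mean of at least 0.5 normalized counts in every group, with Mup1 closest to the minimum in females. TMM factors were 1.06 to 1.17 in male WT, 0.821 to 0.993 in male SIRT6-tg, and 0.906 to 1.06 in female libraries. When only library size was corrected for, the median gene had a log2 fold change of -0.22 between male genotypes, -0.25 for the interaction, 0.19 between WT sexes, and -0.14 between SIRT6-tg sexes. With TMM these medians were 0.06, 0.03, -0.00326, and -0.04, and changes below are relative to them.

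Per kilobase of exon, Mup3 was the most abundant member in every group. In male WT livers its mean was 5288 CPM per kb, and 6 genes of the whole table had a higher mean. Mup20 followed with 2033 CPM per kb, Mup21 with 184, Mup7 with 70.1, Mup12 with 7.99, Mup16 with 3.77, and Mup1 with 2.45 CPM per kb. Across the 7 male WT libraries the range of Mup3 (4226 to 6502 CPM per kb) did not overlap that of Mup20 (1170 to 2979), and that of Mup20 did not overlap that of Mup21 (128 to 303). Mup21 and Mup7 (5.26 to 182) did overlap, as did Mup12, Mup16, and Mup1. In male SIRT6-tg livers 3 genes had a higher mean CPM per kb than Mup3, compared to 28 genes in female WT and 25 in female SIRT6-tg. When the mean CPM was divided by the number of unique 100-base words instead of exon length, Mup7 stood above Mup21 (677 against 225 CPM per 1000 words) and Mup1 above Mup16 (36.7 against 23.7) in male WT livers. With 50-base words Mup7 also stood above Mup20 in male SIRT6-tg livers (9786 against 3519 CPM per 1000 words). The order below Mup3 thus depends on how sharing is treated.

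**Figure D2:**
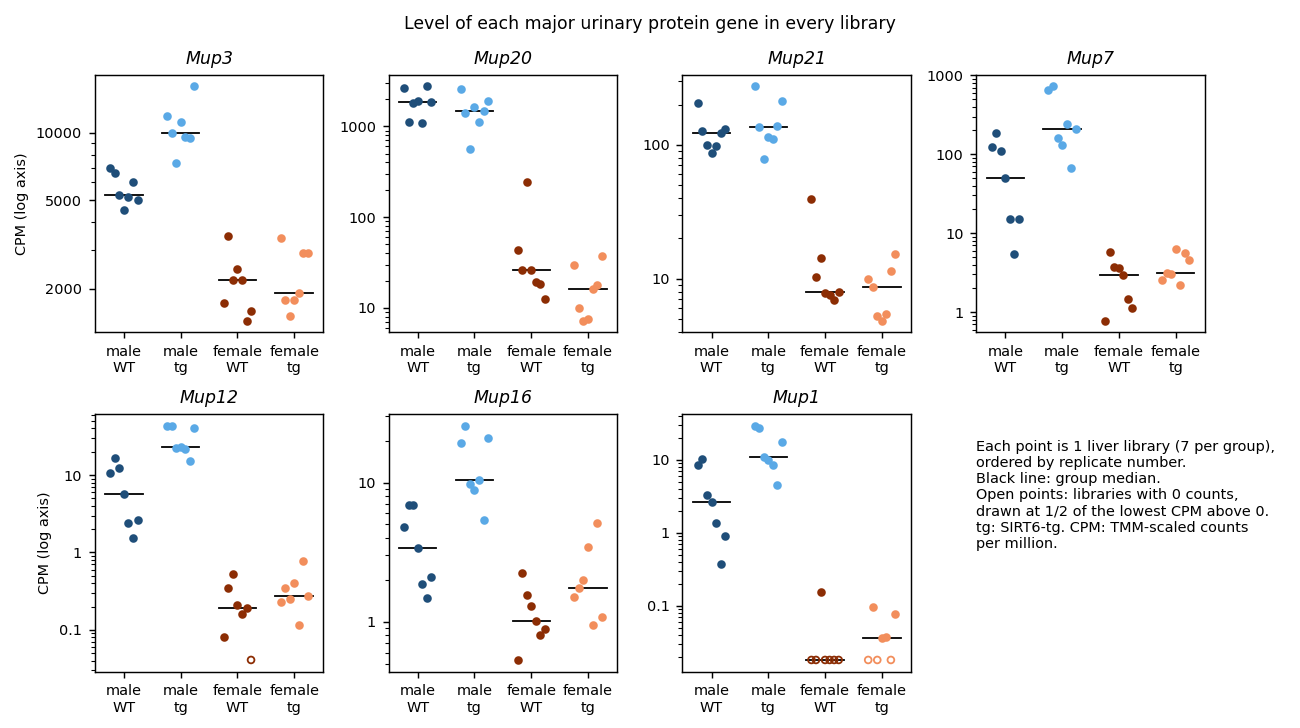
TMM-scaled CPM (log axis) of each member in the 28 liver libraries, 7 per group, with the group median as a line and libraries with 0 counts as open points. Male SIRT6-tg libraries are all above male WT libraries for Mup3, overlap them for the other members, and lie above every female library for all 7.

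Genotype in males was examined first, as the levels of 5 of the 7 members were higher in SIRT6-tg than in WT males and none was lower. These were Mup3, Mup7, Mup12, Mup16, and Mup1, with fold changes from 1.92 to 4.32. Mup20 and Mup21 did not pass the test. Across the 7 members the median log2 fold change was 1.86, compared to 0.06 over all genes tested. Of all genes, 9.68% were called higher and 11.0% lower in SIRT6-tg males. Mup1, Mup7, Mup12, and Mup16 are near-identical and share reads, and the median is the value of Mup16. Neither the count nor the median of the members is therefore like that of separate genes.

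Mup3, a major hepatic form and the member with the best separated reads, lay at 4514 CPM in the lowest, 5251 in the median, and 6944 in the highest male WT library. In male SIRT6-tg livers the corresponding levels were 7329, 10003, and 16195 CPM. Every SIRT6-tg male was thus above every WT male, which held for 2.60% of all genes tested. The mean was 5648 ± 897 CPM (SD, n = 7) in WT and 10831 ± 2779 CPM (SD, n = 7) in SIRT6-tg males, a log2 fold change of 0.94 (SE 0.19, adjusted p = 0.000538).

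Mup7, a central-cluster gene that shares most of its sequence with other Mup genes, spread widely, from 5.44 CPM over a median of 49.8 to 188 CPM in male WT livers. In SIRT6-tg males it ranged from 67.8 over 210 to 727 CPM. The ranges overlapped, with 4 SIRT6-tg libraries above all WT libraries and all 7 above the WT median. Its log2 fold change was 2.11 (SE 0.62, adjusted p = 0.0156). With the 14 male libraries fitted alone the value was 2.08 with an adjusted p = 0.0853, so this call depends on the spread estimated with the females.

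Mup12, Mup16, and Mup1 are near-identical copies of Mup7 with far fewer counts. Mup12 was at 1.52, 5.70, and 16.4 CPM (lowest, median, highest) in male WT and at 15.1, 23.1, and 43.6 CPM in male SIRT6-tg livers, and 6 of the 7 SIRT6-tg libraries exceeded all WT libraries (log2 fold change 2.01, SE 0.40, adjusted p = 0.000606). For Mup16 the levels were 1.48, 3.40, and 6.87 CPM in WT and 5.36, 10.5, and 25.6 CPM in SIRT6-tg males, again with 6 of 7 above all WT libraries (log2 fold change 1.86, SE 0.40, adjusted p = 0.00107). Mup1, the member with the lowest mean CPM per kb, had 9 to 304 counts in male WT and 110 to 717 counts in male SIRT6-tg libraries. This corresponded to 0.379, 2.67, and 10.1 CPM in WT and 4.54, 10.9, and 29.5 CPM in SIRT6-tg males (log2 fold change 1.98, SE 0.50, adjusted p = 0.00473). Of its SIRT6-tg libraries, 4 were above all WT libraries.

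Mup20, the darcin gene, did not follow Mup3. It was at 1086, 1876, and 2764 CPM in male WT and at 570, 1488, and 2567 CPM in male SIRT6-tg livers, so the ranges lay on top of each other. The log2 fold change was -0.30 (SE 0.53, adjusted p = 0.753). Mup21, which is closest to Mup3 in sequence, was at 86.4, 122, and 205 CPM in WT and at 78.9, 136, and 274 CPM in SIRT6-tg males (log2 fold change 0.29, SE 0.35, adjusted p = 0.620). With errors of this size neither gene is shown to be equal in both genotypes.

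The make-up of the Mup pool was described next. The summed level of the 7 members had a median of 7302 CPM (6358 to 9933) in male WT and 12380 CPM (8182 to 18603) in male SIRT6-tg livers. In the median library Mup3 provided 71.2% of this sum in male WT and 85.4% in male SIRT6-tg livers, while Mup20 provided 26.5% and 11.5%. These shares count the reads as deposited. Per unique 50-base word of each transcript, Mup3 made up 50.4% of the sum of the male WT means and 48.9% in male SIRT6-tg livers. Mup20 then made up 30.6% and 12.5%, and Mup7 15.9% and 34.9%. Per unique 100-base word the shares were 58.2% and 65.6% for Mup3, 32.9% and 15.7% for Mup20, and 5.99% and 15.2% for Mup7. The larger Mup3 share in SIRT6-tg males was thus present with 100-base words and absent with 50-base words. The Mup20 share was smaller in SIRT6-tg males on each scale. Mup20 CPM per Mup3 CPM within a library, a ratio that does not depend on the scaling, was 0.170, 0.374, and 0.457 in male WT and 0.0777, 0.142, and 0.215 in male SIRT6-tg livers. The male groups overlapped between 0.170 and 0.215. These ratios are given as a description and were not tested.

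**Figure D3:**
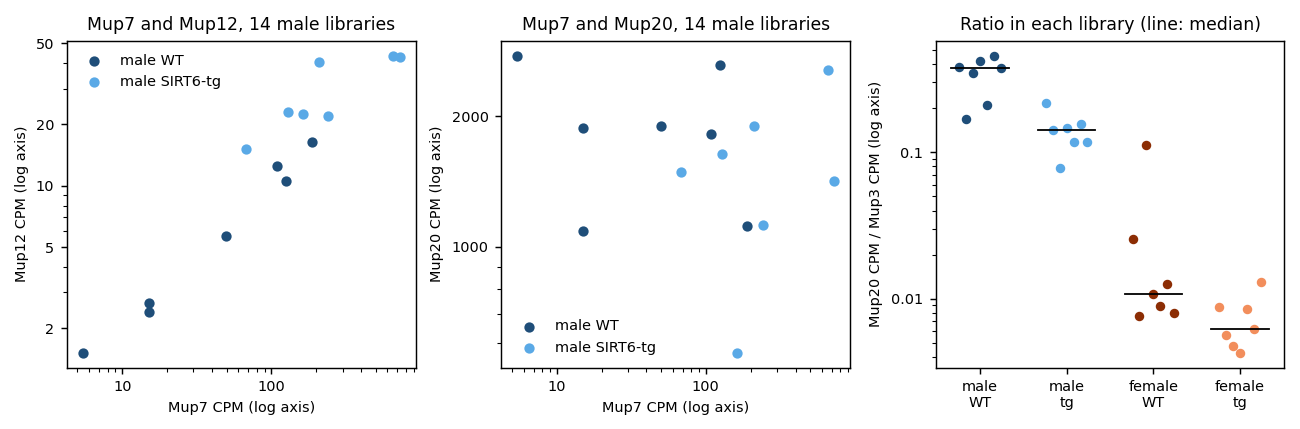
Left and centre, CPM (log axes) of Mup12 and of Mup20 against Mup7 in the 14 male libraries. Right, Mup20 CPM per Mup3 CPM (log axis) in each of the 28 libraries with the group median as a line: 0.374 in male WT, 0.142 in male SIRT6-tg, 0.0107 in female WT, and 0.00624 in female SIRT6-tg.

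Members also differed in how far mice of 1 group lay apart. In male WT livers the SD of log2 CPM was 1.91 for Mup7, 1.63 for Mup1, 1.32 for Mup12, and 0.89 for Mup16, compared to 0.53 for Mup20, 0.41 for Mup21, and 0.23 for Mup3. The median of the 12334 genes with a mean of at least 1 CPM was 0.26, and 4 of those genes had a larger SD than Mup7. In male SIRT6-tg livers the SD was 1.23 for Mup7 and 0.35 for Mup3, compared to a median gene at 0.24. The 4 near-identical members varied together. After group means were subtracted, the Spearman correlation over the 14 male libraries was between 0.89 and 0.95 for each pair among Mup1, Mup7, Mup12, and Mup16. With Mup20, these 4 had correlations between -0.06 and 0.08, and with Mup3 between 0.38 and 0.52. Mup3 with Mup21 gave 0.71 and Mup20 with Mup21 0.60. The pooled values of Mup20 joined unlike groups. Its correlations with Mup1, Mup7, Mup12, and Mup16 were -0.32 to -0.21 in male WT and 0.07 to 0.57 in male SIRT6-tg livers. With Mup3 it had 0.18 in male WT and 0.86 in male SIRT6-tg livers, and with Mup21 0.29 and 0.89. With 7 libraries per group, this contrast was not tested. The points share libraries and, among the near-identical genes, sequence, and these correlations are descriptions.

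Females were compared next, since they carried the transgene at a lower level. None of the 7 members passed the test between female SIRT6-tg and female WT livers, a comparison in which 0.0278% of all genes were called (6 genes by edgeR, 42 by DESeq2, and 1212 at an unadjusted p-value under 0.05). DESeq2 called none of the 7 members either, and 1 member, Mup20, had an unadjusted p-value under 0.05. Mup3 was at 1441, 2192, and 3437 CPM in female WT and at 1513, 1913, and 3399 CPM in female SIRT6-tg livers (log2 fold change 0.10, SE 0.19, adjusted p = 1.00). The female groups covered nearly the same range.

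Mup20 was at 12.7, 26.3, and 246 CPM in female WT and at 7.25, 16.2, and 37.5 CPM in female SIRT6-tg livers, a log2 fold change of -1.64 (SE 0.55, unadjusted p = 0.00606, adjusted p = 0.503). The highest WT value came from 1 library (replicate 3), and without it the log2 fold change was -0.44 (adjusted p = 0.987). Mup21 was at 6.86, 7.91, and 39.4 CPM in female WT and at 4.84, 8.68, and 15.4 CPM in female SIRT6-tg livers (log2 fold change -0.63, SE 0.37, adjusted p = 0.990). Here too 1 WT library (replicate 1) lay above the rest, and leaving it out gave a log2 fold change of -0.08.

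The near-identical members had few counts in females, with 19 to 171 counts per library for Mup7, 13 to 106 for Mup16, 0 to 17 for Mup12, and 0 to 5 for Mup1. Mup7 was at 0.777, 2.90, and 5.76 CPM in female WT and at 2.21, 3.13, and 6.23 CPM in female SIRT6-tg livers (log2 fold change 0.49, SE 0.67). Mup16 was at 0.532, 1.01, and 2.23 CPM in WT and at 0.952, 1.76, and 5.11 CPM in SIRT6-tg females (log2 fold change 0.90, SE 0.45, adjusted p = 0.903). For Mup12 the median was 0.192 CPM in WT and 0.271 CPM in SIRT6-tg females (log2 fold change 0.55, SE 0.76). Mup1 had 5 counts in all female WT libraries together, with 6 of the 7 libraries at 0, and 7 counts in female SIRT6-tg libraries, with 3 at 0. Their ratio per library size was 1.43 with a 95% counting interval from 0.391 to 5.72, so no difference in either direction was detectable at this depth.

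Whether the genotype effect differed between the sexes was tested as an interaction, and no member passed with edgeR or with DESeq2, compared to 5.05% of all genes. At an unadjusted p-value under 0.05 there was 1 member. The difference, male minus female log2 fold change, was positive for all 7 members, although for Mup20 and Mup21 the female value was the one farther from 0, and the Mup1 difference turned to -1.23 without female WT replicate 3. The nearest to the threshold was Mup3, with a male effect 0.84 above the female effect on the log2 scale (SE 0.27, unadjusted p = 0.00400, adjusted p = 0.0666). Leaving out male SIRT6-tg replicate 3, female WT replicate 6 or 7, or female SIRT6-tg replicate 1 or 6 moved Mup3 past the threshold, with adjusted p-values between 0.0309 and 0.0493. The difference was 1.62 (SE 0.90) for Mup7, 1.46 (SE 0.89) for Mup12, 0.95 (SE 0.59) for Mup16, 1.34 (SE 0.76) for Mup20, and 0.92 (SE 0.51) for Mup21, with adjusted p-values between 0.340 and 0.409. For Mup20 it was 0.14 without female WT replicate 3, and for Mup21 it was 0.36 without female WT replicate 1. Thus the male changes above are not shown to be restricted to males. Sirt6 itself rose by a log2 fold change of 6.68 in males and 3.39 in females. In this interaction, sex therefore cannot be told apart from the transgene level.

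**Figure D4:**
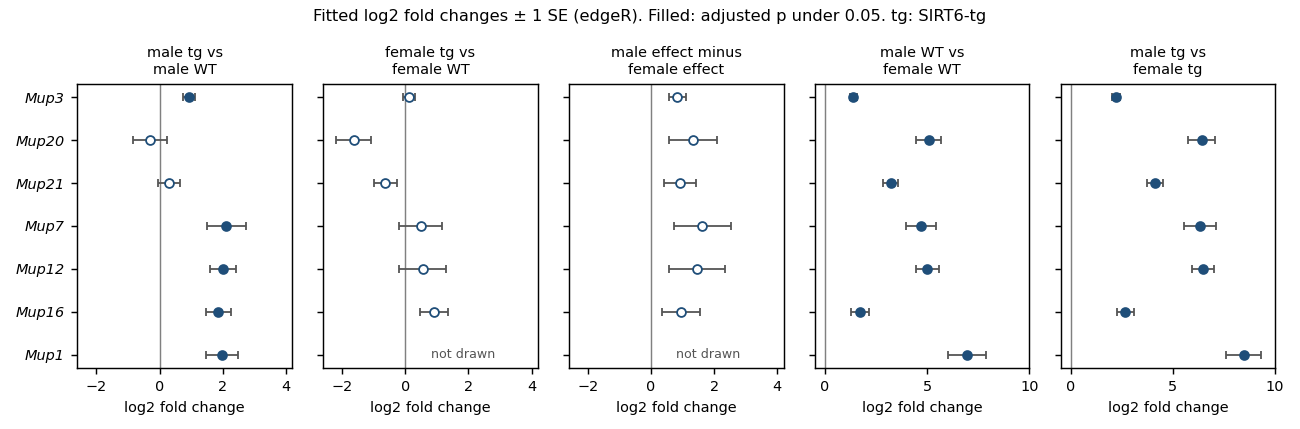
Fitted log2 fold changes of the 7 members with bars of 1 SE in the 5 comparisons, filled where the adjusted p-value of edgeR was under 0.05. Of the members, 5 are filled for genotype in males, none for genotype in females or for the difference between these effects, and 7 in each comparison of the sexes; Mup1 is not drawn where both groups were near 0 counts or the value rests on such groups.

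Sex was compared within each genotype. In WT mice all 7 members were higher in males, compared to 6.65% of all genes (5.71% were lower), and for 5 of the 7 every male was above every female, which held for 1.33% of all genes. The median log2 fold change of the members was 4.70. As between male genotypes, the near-identical members keep this count and median from being like those of separate genes. Mup3, the form that females also express at a high level, had the smallest sex difference, 2.63-fold (log2 1.39, SE 0.19, adjusted p = 7.12e-06). Mup20 was 33.5-fold higher in males (log2 5.07, SE 0.63, adjusted p = 2.78e-06), and without female WT replicate 3 the log2 value was 6.27. Mup21 was 9.25-fold higher (log2 3.21, SE 0.38, adjusted p = 1.37e-06).

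For Mup12 the log2 difference between WT sexes was 5.00 (SE 0.57, adjusted p = 5.71e-07), and for Mup7 it was 4.70 (SE 0.72, adjusted p = 5.26e-05). Mup7 overlapped, since its lowest male WT library (5.44 CPM) was below the highest female WT library (5.76 CPM). Mup16 was higher by 1.72 (SE 0.43, adjusted p = 0.00822) with 4 of 7 males above all females. Mup1 had 854 counts in male WT and 5 in female WT libraries, a ratio of 147 per library size with a 95% counting interval from 62.7 to 454 (adjusted p = 8.21e-06). All 5 female counts came from replicate 3. Against the other 6 female WT libraries, which held 0 counts, Mup1 was at least 201-fold higher (3 counts over the group as the floor). These 6 were picked by their 0 counts, so this value is no bound for all 7 female WT libraries. The fitted fold change of Mup1 depends on the prior count and is not used.

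Among SIRT6-tg mice all 7 members were again higher in males (12.9% of all genes were higher and 10.2% lower), and all 7 had every male above every female, which held for 3.58% of all genes. Mup3 differed 4.69-fold (log2 2.23, SE 0.20, adjusted p = 9.83e-10) and Mup20 84.8-fold (log2 6.41, SE 0.67, adjusted p = 1.04e-07). The log2 difference was 6.32 (SE 0.76) for Mup7, 6.47 (SE 0.55) for Mup12, 4.13 (SE 0.40) for Mup21, and 2.67 (SE 0.42) for Mup16. Mup1 had 2619 counts in males and 7 in females. Each group enters both a genotype and a sex comparison, so these are not independent. Here too the count of members is not like a count of separate genes. The difference between the sex effects of WT and SIRT6-tg mice is the interaction given above, in which no member passed. Sirt6 was 9.31-fold higher in SIRT6-tg males than in SIRT6-tg females, so the sex comparison in SIRT6-tg mice also holds a difference in transgene level.

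Sex also changed the make-up of the pool. In the median female library Mup3 provided 98.4% of the summed level of the 7 members in WT and 98.7% in SIRT6-tg livers, and Mup20 1.05% and 0.615%. The summed level was 2228 CPM (1468 to 3482) in female WT and 1938 CPM (1531 to 3443) in female SIRT6-tg livers, so the highest female was below the lowest male in both genotypes. Per unique 50-base word, Mup3 made up 91.3% of the sum of the female WT means and 93.3% in female SIRT6-tg livers. Mup20 then made up 4.32% and 1.32%, and Mup7 2.90% and 3.89%. The female pool was thus smaller and consisted mostly of Mup3 among the members counted, with a share that depends on how sharing is treated.

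The other Mup genes were described in the same way, as they share sequence with the members. Of the 42 other Mup features, 25 passed the filter on low counts, 13 protein-coding genes and 12 pseudogenes, 1 of which (Mup-ps22) lies on chromosome 11. SIRT6-tg males had higher levels of 14 of the 25 and lower levels of none, with a median log2 fold change of 1.12. This count fell to 6 under library size alone. It was 3 without male WT replicate 7, 4 without male WT replicate 4, 8 without male SIRT6-tg replicate 1, and 7 without male SIRT6-tg replicate 2 or 7. Mup17 had the largest change, from a mean of 7.13 to 81.8 CPM (log2 3.50, SE 0.63, adjusted p = 0.000180). Mup11 rose from 30.5 to 128 CPM (log2 2.06, adjusted p = 0.0200) and Mup14 from 55.4 to 133 CPM (log2 1.26, adjusted p = 0.0367). Mup18 was the only one of these genes with every SIRT6-tg male above every WT male (log2 2.53, adjusted p = 0.000173).

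By edgeR none of the 25 passed the test in females (2 at an unadjusted p-value under 0.05, and 1 by DESeq2) or for the interaction (3 unadjusted, and 2 by DESeq2). Between WT sexes 13 of the 25 were higher in males and none was lower (median 1.85), led by Mup11 (log2 6.46) and Mup14 (log2 6.34). In SIRT6-tg mice 22 of the 25 were higher in males (median 2.82). Mup8, Mup-ps6, Mup-ps14, Mup-ps17, and Mup-ps19 had means under 0.5 normalized counts in both female groups, so they passed the filter through the males. All of them were among the SIRT6-tg calls, and Mup8, Mup-ps17, and Mup-ps19 among the WT calls. For these features the filter favoured a higher male level, and their sex calls are not taken as support. The fold changes of the tested features are shown by their position in the cluster, and no difference by position was tested.

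**Figure D5:**
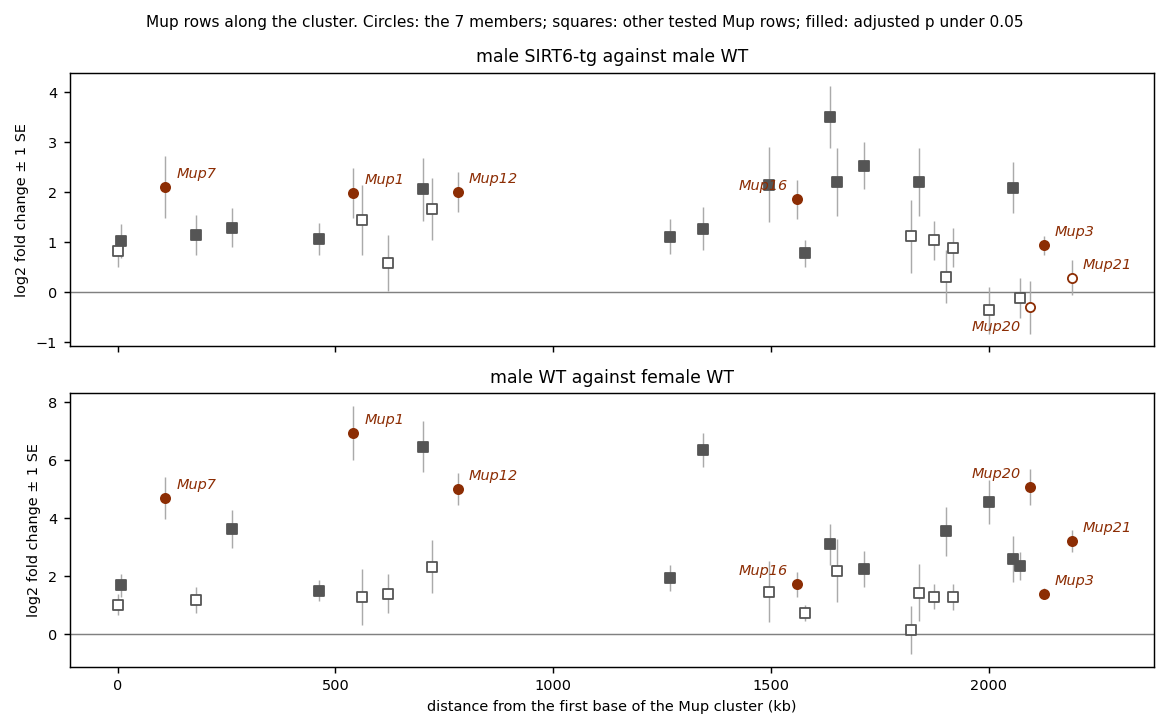
Fitted log2 fold change with bars of 1 SE of the 7 members (circles) and the other tested Mup features of the cluster (squares) by distance in kb from its first base, for genotype in males (top) and for sex in WT mice (bottom); filled symbols had an adjusted p-value under 0.05. In males the members from Mup7 to Mup16 lie between 1.86 and 2.11, while Mup20 and Mup21 are at -0.30 and 0.29; all 7 members are filled for sex.

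Most genes that flank the cluster were not called between male genotypes. Of 30 protein-coding genes within 1 Mb, 25 were tested, and their median log2 fold change was -0.01. Of these, 3 were higher (Dnajc25 0.60, Hsdl2 0.47, Susd1 0.39) and 1 was lower (Slc31a2 -0.33), compared to 9.68% and 11.0% of all genes. The summed level of the 25 flanking genes was nevertheless higher in SIRT6-tg males, at 3286 to 3839 CPM compared to 2691 to 3136 CPM in male WT livers. Under library size alone 8 of them were called and all 8 were lower. Between WT sexes none was higher in males and 3 were lower, namely Hsdl2 (log2 -0.997), Ugcg (-0.52), and Slc31a1 (-0.37). No member had a log2 difference between WT sexes below 1.39.

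Known regulators of Mup transcription and growth hormone signalling made up a list of 26 genes, all tested. SIRT6-tg males had higher levels of 6 and lower levels of none (median 0.20). They were Cebpa, a hepatocyte transcription factor (log2 0.47, adjusted p = 0.000134), the growth hormone receptor Ghr (0.44, adjusted p = 0.00302), its targets Igfals (0.58) and Igf1 (0.33), and the pioneer factors Foxa2 (0.64) and Foxa1 (0.50). Under library size alone none of the 26 was higher and 2 were lower, so these directions depend on the scaling. Cebpa was the regulator whose genotype effect differed between the sexes (0.47, adjusted p = 0.0180), a call absent under upper-quartile scaling.

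Between WT sexes 4 regulators were lower in males, Cux2, a repressor that is expressed in female liver (log2 -5.89), the prolactin receptor Prlr (-2.10), the estrogen receptor Esr1 (-1.30), and the glucocorticoid receptor Nr3c1 (-0.33), while Zbtb20 was higher (0.49). Cux2 was at 0.607 CPM in male WT and 0.523 CPM in male SIRT6-tg livers. In females it was at 34.9 CPM in WT and 50.4 CPM in SIRT6-tg livers. A part of Cux2 in the Mup levels was not tested, and between the sexes it cannot be told apart from other effects of sex. Between SIRT6-tg sexes 5 regulators were higher and 8 lower in males.

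Other genes with a known sex bias were counted to place the members. Of 25 male-biased genes, 23 were higher in male than in female WT livers (median log2 2.84) and 24 in SIRT6-tg livers. SIRT6-tg males exceeded WT males in 7 of these 25 and fell below them in 1 (median 0.38), compared to 5 of the 7 members. Of all genes, 9.68% were higher and 11.0% lower. Mup1, Mup7, Mup12, and Mup16 are near-identical and varied together, so the count of members is not like a count of separate genes. The examples with the lowest p-values were Keg1, a glycine acyltransferase gene (log2 0.97, adjusted p = 1.16e-05), and Hsd3b5, a male-specific steroid reductase (log2 1.41, adjusted p = 0.000285). Among 25 female-biased genes, 22 were lower in male WT livers (median log2 -4.35), and 1 was higher and 2 were lower in SIRT6-tg males.

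Related secreted proteins served as a further comparison. Of 12 lipocalins outside the cluster, 3 were higher and 2 lower in SIRT6-tg males (median 0.28). Lcn2, an iron-scavenging lipocalin of inflammation, fell by 3.75 on the log2 scale (adjusted p = 5.83e-05), and Orm2, an acute phase protein, fell by 2.28 (adjusted p = 0.00218), while the complement subunit C8g was higher by 0.64. Among 18 abundant secreted hepatocyte proteins, 9 were higher and none lower in SIRT6-tg males (median 0.37), for example Serpina1c (0.86), Apoa2 (0.74), and Alb (0.35). Under library size alone 1 of the 18 was higher and 2 were lower. When the libraries were instead scaled on the summed counts of these 18 genes, 4 of the 7 members were still higher in SIRT6-tg males. Mup3 was then at a log2 fold change of 0.60 (adjusted p = 0.00917) and Mup7 at 1.81 (adjusted p = 0.0501), while the median of all genes was -0.26.

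Markers of some other cell types moved with genotype in the same male libraries. The hepatocyte markers were abundant in the labelled tissue, with a summed level of 98235 to 137479 CPM in male WT and 123869 to 170454 CPM in male SIRT6-tg livers, and 3 of 8 were called higher. All 10 T cell markers were lower in SIRT6-tg males (summed level 6.29 to 10.8 CPM, compared to 19.3 to 59.8 CPM in WT), and all 10 macrophage markers were lower too (369 to 631 CPM, compared to 475 to 1487 CPM). The 7 stellate cell markers were lower as well (248 to 339 CPM, compared to 362 to 595 CPM). Other lists had fewer calls, with 4 of 6 B cell and 1 of 7 endothelial markers lower and 0 of 5 cholangiocyte markers called. Of 5 erythroid markers 1 was higher, of 5 pancreas markers 1 was higher and 1 lower, and of 4 adipocyte markers 1 was lower. Their median log2 fold changes were -0.81 (B cell), -0.18 (endothelial), -0.43 (cholangiocyte), 0.25 (erythroid), -2.48 (pancreas), and -1.91 (adipocyte). The stellate cell list had a median of -0.70 and the macrophage list one of -1.21, so fewer calls did not always mean smaller changes. In WT mice 9 of the 10 T cell markers were higher in males than in females. Of the T cell, macrophage, and hepatocyte markers, none was at 0 throughout a group. The part of these differences in the Mup results was not tested, and in bulk RNA fewer cells of a type cannot be told apart from less RNA per cell. The scaling on hepatocyte genes is no such test, since 9 of its 18 genes were themselves called higher in SIRT6-tg males.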

How the data were processed

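Liver RNA of 28 mice in 4 groups of 7 was analysed. Sex, genotype, and replicate number came from the sample labels. The authors sequenced NEBNext Ultra libraries single-end on a HiSeq, used STAR 2.5.0a for alignment to mm10, kept uniquely mapped reads, and ran HTSeq-count on the Gencode annotation. The authors deposited raw read counts without normalization, and the strand setting is not given in the sources used here, so overlapping and antisense genes are uncertain. Because only uniquely mapped reads were kept, reads from identical stretches of Mup genes were lost.

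The Gencode vM21 annotation (GRCm38) gave symbols and coordinates. Genes with a mean of at least 0.5 counts after DESeq2 size factors were kept. Counts were scaled by TMM and tested with edgeR 4.0.16 (quasi-likelihood F-test, robust, all 28 libraries in 1 fit) in R 4.3.3, with Benjamini-Hochberg adjustment over all 21583 genes. SE was derived from the fold change and the F statistic. DESeq2 1.42.0 was an alternative, and the test was checked on simulated data. Further alternatives were other scalings and filters, a replicate block, separate fits, and each library left out. The scaling on hepatocyte genes was chosen after seeing the data. With 0 counts in a library up to 3 remain possible (95% level), and intervals and floors cover counting error only.

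The members and gene lists were chosen with earlier results of these data known. Named were all members, tested Mup features, and of each list the genes with the lowest adjusted p-values between male genotypes or WT sexes, plus any regulator with a call. Mup features, flanking genes, and markers named beside a count of 5 or fewer were named for that count. Nothing says that mice came from separate litters, so p-values measure the spread between these mice. Same-numbered mice were not paired by the labels.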

Additional observations from a re-analysis of the deposited data

Results flagged for a closer look

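For the 7 members in 4 groups, each set of 7 libraries was examined by Dixon's criterion at the 95% level. In 4 of the 28 sets the highest library lay apart from the other 6. The nominal rate by chance is about 1 in 20 sets of independent normal values. It need not hold for CPM of members that share libraries and reads. Mup20 reached 246 CPM in female WT replicate 3, where the next library was at 44.0 CPM. Mup1 reached 0.153 CPM in the same library, which is 5 counts against 0 in the other 6. Mup21 reached 39.4 CPM in female WT replicate 1, with the next library at 14.2 CPM, and 205 CPM in male WT replicate 1, with the next at 132 CPM. Without female WT replicate 3, the log2 fold change of Mup20 between female genotypes moved from -1.64 to -0.44. Without female WT replicate 1, that of Mup21 moved from -0.63 to -0.08. Without male WT replicate 1, the log2 fold change of Mup21 between male genotypes was 0.43 (adjusted p = 0.461, edgeR), compared to 0.29 with it.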

How the results depend on the processing

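Counts of called members lay within 1.5 times in all 49 combinations of comparison and setting and in 135 of 140 fits without 1 library. The interaction count ranged from 0 to 1, the 1 being Mup3 without male SIRT6-tg replicate 3, female WT replicate 6 or 7, or female SIRT6-tg replicate 1 or 6. Of 343 member log2 fold changes, 340 kept direction and call. The exceptions were Mup7 in males, with 14 libraries alone or scaled on hepatocyte genes, and Mup21 in males, -0.0399 with the latter scaling, which was chosen after seeing the data. Of 980 fits without 1 library, 973 did. Mup3 between female genotypes ran from -0.0165 (without female SIRT6-tg replicate 1) to 0.25, and the Mup1 interaction from -1.23 (without female WT replicate 3) to 1.98.

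The other Mup features called in males (14) were 9 with upper-quartile scaling, 6 with library size alone, 4 with the hepatocyte scaling, and 3 to 16 without 1 library. In females (0) they were 1 with DESeq2, 1 with the hepatocyte scaling, and 0 to 1 without 1 library. For the interaction (0) they were 2 with DESeq2 and 0 to 1 without 1 library, and between WT sexes (13) 21 with the hepatocyte scaling.

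Library size alone gave 2 regulators, 3 lipocalins, 3 secreted proteins, and 8 flanking genes in males, and for the interaction 0 male-biased, 2 female-biased, 1 lipocalin, 0 secreted, and 1 flanking gene. Upper-quartile scaling gave 3 secreted proteins in males and for the interaction 0 regulators, 1 male-biased, and 1 female-biased gene. RLE factors gave 1 male-biased and 1 female-biased gene for the interaction.

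With the replicate number as a block, 5, 0, 0, 7, and 7 members were called, as without it, and 12 other Mup features in males. The block gave Mup1 in males a log2 fold change of 2.33 with an SE of 0.30, compared to 1.98 and 0.50. The numbers are not taken as pairs, since correlations of same-numbered WT and SIRT6-tg deviations over all genes ran from -0.12 to 0.23 in males (2 of 7 over 0.1, 0 best with their own number) and from -0.28 to 0.27 in females (3 of 7, and 1). Among the members, however, males numbered 1 and 2 were the highest of both genotypes for Mup1 and Mup7, and number 6 the lowest. Depth limits Mup1 in females, where groups held 5 and 7 counts, and sharing of reads limits Mup1, Mup7, Mup12, and Mup16.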

Other observations

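Genes whose pattern was most like the summed level of the 7 members were ranked among 12319 other genes with a mean of at least 1 CPM. Over all 28 libraries the highest Spearman correlations of log2 CPM were those of Trappc3, a vesicle tethering subunit (0.95), Hars, a histidyl-tRNA synthetase (0.94), Ces3a, a liver carboxylesterase (0.94), Cfap298 (0.94), and Nudt7, a peroxisomal hydrolase (0.94), with a median gene at 0.00712. Ces3a was at a mean of 1272 CPM in male WT, 1604 in male SIRT6-tg, 548 in female WT, and 636 in female SIRT6-tg livers. Nudt7 was at 523, 874, 156, and 160 CPM in the same order, with a log2 fold change of 0.74 between male genotypes (adjusted p = 0.000636).

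After the group means were subtracted, the most alike were Rfesd (0.81), Serpina12, a secreted serine protease inhibitor (0.80), Mrpl19 (0.79), Gstp-ps (0.78), and Tmem243 (0.78), with a median gene at -0.03. Serpina12 was at 80.6 CPM in male WT, 116 in male SIRT6-tg, 11.2 in female WT, and 10.4 in female SIRT6-tg livers. The points share libraries and scaling, the sum consists mostly of Mup3, and these values are descriptions of likeness with no test.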
